A study of Mus musculus with 6 samples.

Results

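Mouse cDNA clones of the FANTOM3 collection that lie outside every named gene of the deposited table were followed in liver sinusoidal endothelial cells (LSECs) with and without Rbpj. The table lists 33353 FANTOM3 clones beside 23472 named genes, 56825 entries in all. A clone was taken when its interval overlapped no named gene on either strand, which held for 7748 clones, and when it had at least 10 counts in at least 3 of the 6 libraries, which left 1798 clones. Clones that overlap each other share reads, so they were merged to 1474 loci, and each locus is read at the clone with the largest mean count. The rule did not use genotype. At its edge, 78 clones had exactly 10 counts in their third-highest library and 81 clones had 9.

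The RBPjcKO libraries (n = 3) came from C57BL/6 mice with a conditional knockout of Rbpj, and the WT libraries (n = 3) from wild-type C57BL/6 mice. Mice of both genotypes were 7 to 8 weeks old and had received tamoxifen intraperitoneally, which in the RBPjcKO mice inactivates Notch signalling. The promoter that drives the recombinase and the way the cells were purified are details that the sources used here do not give. Nothing in the labels says that each library came from its own mouse, so p-values speak of the spread among libraries. Total RNA was sequenced as paired reads.

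Rbpj itself, the gene deleted in the knockout, had 14.2, 16.5 and 14.6 CPM (counts scaled to library size with TMM factors) in RBPjcKO libraries, against 35.6, 38.3 and 37.5 CPM in WT libraries, a 2.45-fold fall (log2 fold change -1.29, SE 0.11) that was larger than the spread between libraries (edgeR adjusted p = 0.000777). The entries of the table received 46442626 to 48370102 counts in RBPjcKO libraries and 37307663 to 45452506 in WT libraries. The 10 LSEC markers in the table summed to 20483, 21231 and 17376 CPM in RBPjcKO, against 22189.9, 18704 and 19715 CPM in WT, so markers of the labelled cell type were abundant in every library. Markers of other liver cells were also detected. The 12 hepatocyte markers summed to 1427, 1897 and 4103 CPM in RBPjcKO, against 2013, 1050.1 and 1278 CPM in WT. The 9 markers of Kupffer cells and macrophages summed to 1257, 416 and 844 CPM in RBPjcKO, against 1819, 871 and 1927 CPM in WT. The 6 cholangiocyte markers, none at 0 in all libraries, summed to 68.9, 75.2 and 101 CPM in RBPjcKO, against 186, 313 and 154 CPM in WT, without overlap between the groups. The 6 granulocyte markers summed to 293, 446 and 734 CPM in RBPjcKO, against 366, 71.2 and 140.0 CPM in WT. What part these cells have in the changes of single clones was not tested. In bulk RNA fewer cells of a type and less RNA per cell cannot be told apart.

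FANTOM was an effort to clone and sequence full-length mouse cDNAs, and its collection is rich in RNAs that gene catalogues of the time did not hold. Such clones are of several kinds. Some are long noncoding RNAs, transcripts without an evident protein product that can act on chromatin or on neighbouring genes, or whose transcription rather than product matters. Others are the far ends of messenger RNAs: a gene with several poly(A) sites makes messengers with short or long 3′ untranslated regions, and the long ones carry further sites for microRNAs and RNA-binding proteins. Rbpj binds DNA at the core motif GTGGGAA and carries the Notch signal to its target genes. In LSECs, the fenestrated endothelium of the liver, Notch signalling takes part in keeping vascular identity.

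Sequences at annotated starts and ends of genes with called clones are shown first. For the long noncoding RNAs that fell in RBPjcKO, 3 of the 4 RefSeq promoters (GRCm38.p6) with the lowest adjusted p of their clone are printed 5′ to 3′ on the strand of the gene, 250 bases before the annotated start in lower case and the 50 bases from the start on in capitals.
AU020206 (chr7:75782071-75782370, minus strand): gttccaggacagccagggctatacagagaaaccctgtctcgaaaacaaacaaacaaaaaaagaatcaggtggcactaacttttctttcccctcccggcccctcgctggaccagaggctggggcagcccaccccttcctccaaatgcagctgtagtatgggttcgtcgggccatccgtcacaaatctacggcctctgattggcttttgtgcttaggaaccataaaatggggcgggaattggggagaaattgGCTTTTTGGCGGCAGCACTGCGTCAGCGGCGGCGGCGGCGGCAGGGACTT
Gm38910 (chr6:134607954-134608253, minus strand): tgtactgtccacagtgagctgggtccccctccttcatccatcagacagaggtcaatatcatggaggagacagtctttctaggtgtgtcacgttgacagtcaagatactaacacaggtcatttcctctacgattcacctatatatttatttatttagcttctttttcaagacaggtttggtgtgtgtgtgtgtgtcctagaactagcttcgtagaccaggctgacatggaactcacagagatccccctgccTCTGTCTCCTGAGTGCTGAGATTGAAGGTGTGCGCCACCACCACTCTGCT
1810073O08Rik (chr17:83917684-83917983, plus strand): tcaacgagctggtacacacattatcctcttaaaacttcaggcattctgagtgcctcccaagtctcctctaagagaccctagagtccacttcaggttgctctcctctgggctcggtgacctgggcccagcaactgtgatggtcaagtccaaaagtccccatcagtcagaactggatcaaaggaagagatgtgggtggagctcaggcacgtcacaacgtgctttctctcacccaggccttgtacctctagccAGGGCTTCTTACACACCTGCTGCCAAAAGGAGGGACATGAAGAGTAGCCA
None of the 3 holds GTGGGAA or the E-box CACGTG on either strand. Among all 32851 RefSeq promoters of this length 6.38% hold GTGGGAA and 7.15% hold CACGTG, and among the 113 promoters matched to long noncoding RNA loci of these clones the shares were 5.31% and 12.4%. Of the 8 matched promoters of called loci, 0 hold GTGGGAA and 1, that of Lncpint, holds CACGTG. Promoters were matched by gene name with no limit on distance, so they need not be the start of the clone. From the RefSeq start to the 5′ end of the clone there were 10074 bases at AU020206, 322 at Gm38910 and 3 at 1810073O08Rik. At Lncpint there were 135424. These are matches of letters in a window and no measure of binding.

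For the clones at the ends of protein-coding genes, the last 30 bases of the GENCODE vM21 transcript that ends within 25 bases of the clone are printed. They are given for some of the genes whose clone was called, chosen by no fixed rule, with the poly(A) signal AATAAA in capitals.
Xylt1: ttaaAATAAAaaaaaaatgtctctatgaaa
Etv1: gtctaaAATAAAagcccagaaattgaaaat
Cdk1: ggAATAAAaggattattcacaaacagaaaa
Lzts1: ttatgAATAAAgaatgccatttctcatgtc
Cd33: ttgaatctctggAATAAAgcctacttgatt
Klhl3: ggcgttttAATAAAagccgaactgtgcaaa
Col4a4: AATAAAaggaaagaaaatgactgcttataa
Clstn1: cgttatAATAAAgttctggttctaactcca
Scarb2: gtttcactaattaaagaaagtttctataaa
Of the 400 loci in untranslated exons of protein-coding genes, 232 had such a transcript end, and 147 of those ends (63.4%) hold AATAAA, against 27.2% of 101652 transcripts of protein-coding genes. On the opposite strand the shares were 4.74% and 2.53%. These sets are unlike: the 232 ends were chosen for lying at the end of a cDNA clone in an untranslated exon. The 101652 are all transcripts of such genes, with no condition on their ends. The gap between the shares is thus not shown to be particular to these clones. Of the printed ends only that at Scarb2 lacks the exact letters AATAAA. Among the ends of called clones that are not printed, those at Ppp1r12b, Gstt2, Mturn, Zfhx2 and Bicc1 lack them too. Those at H2-Q6, Palld, Dnajc15, Kif13b and Zfp738 hold them. Variants of the signal were not searched.

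Set against GENCODE vM21, which is on the same build as the files, many of the clones lay in annotated genes whose table entry stops short of them. The class was read from the whole genomic interval of a clone, introns included. For spliced clones the exons of the clone itself were not compared. Untranslated exons of protein-coding genes held 400 of the 1474 loci (27.1%), and coding exons held 32. Exons of long noncoding RNA genes held 370 loci (25.1%). Introns of protein-coding genes on the same strand held 68 loci, and 58 lay over a protein-coding gene on the opposite strand only. Pseudogenes held 13 loci, other GENCODE entries 76 and mitochondrial DNA 5. No GENCODE gene was present at the remaining 452 loci (30.7%), which had a median distance of 2331 bases to the nearest named gene, and 351 of them lay within 10000 bases of one.

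Most clones were single and unspliced. A single clone made up 1234 loci, the other 240 held between 2 and 8 clones, and 24 loci had clones on both strands. In 1492 of 1798 clones (83.0%) the length equalled the genomic span, with a median length of 1802 bases. The levels were low. The median locus had a mean of 34 counts and 0.474 RPKM, against 108 counts and 0.991 RPKM for the median of all 23472 named genes, on which no count minimum was set, and 90 loci were over 10 RPKM. Untranslated exons of protein-coding genes had the highest median level of the larger classes, 1.44 RPKM, against 0.352 RPKM for exons of long noncoding RNA genes and 0.395 RPKM for loci with no GENCODE gene.

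**Figure D1:**
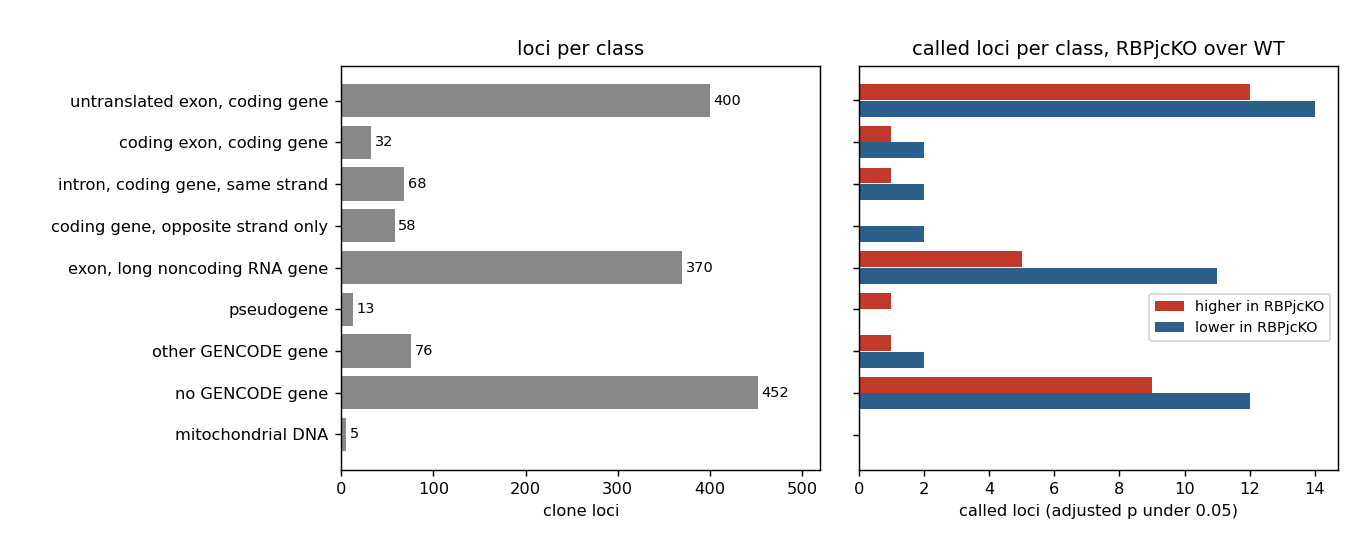
Clone loci by GENCODE class. Left, the number of loci per class (1474 in all); right, the loci called between RBPjcKO and WT, higher (red, 30 in all) and lower (blue, 45 in all) in RBPjcKO. Untranslated exons, long noncoding RNA exons and loci with no GENCODE gene hold most of both.

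The clones took a small share of the sequencing. They received 1.46, 1.30 and 1.43% of all counts in RBPjcKO libraries, against 1.31, 1.49 and 1.46% in WT libraries, or 1.40 ± 0.0872% and 1.42 ± 0.0985% (SD, n = 3 each). The groups overlapped, and the difference of -0.0199 percentage points had p = 0.60 in an exact two-sided permutation test, in which 3 against 3 libraries cannot go below 0.10. This sum holds opposite differences. Without the clones on mitochondrial DNA, described below, the clones received 1.25, 1.08 and 1.17% of all counts in RBPjcKO libraries, against 1.25, 1.34 and 1.27% in WT libraries, a difference of -0.115 percentage points with overlapping groups (p = 0.20 in the same exact test). The mitochondrial clones differed by 0.0956 percentage points. The most abundant clone alone took 7.78% to 11.4% of the counts in these clones, and the 10 most abundant took 35.3% to 40.6%.

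Single loci did change. By the quasi-likelihood test of edgeR with Benjamini-Hochberg adjustment over all 29067 entries tested, 75 of 1446 tested loci were called at an adjusted p under 0.05, 30 higher and 45 lower in RBPjcKO. This is 5.19% of loci, below the 10.7% of all entries called in the same fit (5.83% higher and 4.84% lower) and the 14.5% of named genes (7.94% higher and 6.53% lower). The depth of a locus goes with its share of calls: 3.03% of loci with a mean of 10 to 50 counts were called, 6.26% of those with 50 to 500 counts and 15.7% of those with 500 or more, against 6.54%, 14.6% and 16.3% of named genes in the same ranges. Among the called loci, 56 changed at least 2-fold and 58 stood over 1 CPM in a group. At an unadjusted p under 0.05 there were 291 loci. The calls are sensitive to single libraries. With a library left out, 42, 39 and 35 loci were called without RBPjcKO replicates 1, 2 and 3, and 50, 20 and 54 without WT replicates 1, 2 and 3, and 18 of the 75 were called in all 6 of these fits. The share of all entries called was also lower in these fits than the 10.7% of the main fit. It was 6.09, 5.75 and 6.15% without RBPjcKO replicates 1, 2 and 3. Without WT replicates 1, 2 and 3 it was 7.91, 3.17 and 7.24%. Of the 75, 11 had reached the count minimum through a single group, 7 through RBPjcKO and 4 through WT, so a difference was built into their selection.

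The calls spread over the classes. In untranslated exons of protein-coding genes 12 loci rose and 14 fell of 398 tested (6.53% called). In exons of long noncoding RNA genes 5 rose and 11 fell of 353 (4.53%). Among loci with no GENCODE gene 9 rose and 12 fell of 447 (4.70%). The median log2 fold change was -0.13 over all tested loci and -0.01 over all entries. In 15 called loci with more than 1 clone, all clones had the same sign, and in 11 of the 15 all clones were called, which partly repeats the same reads.

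**Figure D2:**
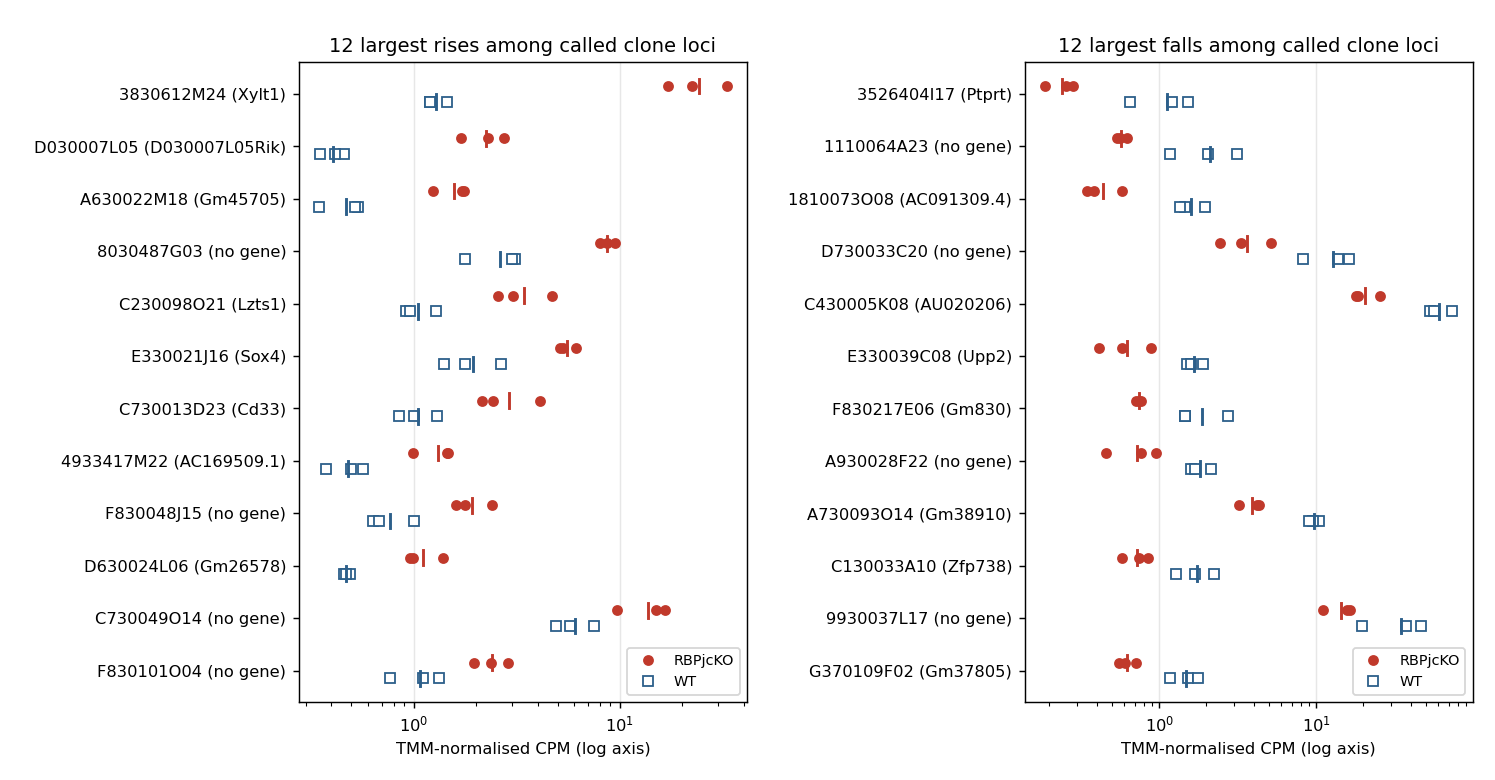
TMM-normalised CPM (log axis) in each library of the 12 called loci with the largest rises (left) and the 12 with the largest falls (right) in RBPjcKO, among loci of at least 1 CPM in a group. Red circles are RBPjcKO and open squares WT libraries, vertical strokes are group means, and the GENCODE gene stands in brackets. The groups overlap in none of the 24, and in none of the 75 called loci, so this does not set the 24 apart. The share over all entries was not counted.

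The largest rise among the clones lay at the end of Xylt1, which encodes the xylosyltransferase that starts glycosaminoglycan chains on proteoglycans. The clone fantom3_3830612M24 (chr7:117670564-117673577, plus strand) is an untranslated exon of the gene and begins 2933 bases beyond its table entry. It had 17.2, 22.5 and 33.0 CPM in RBPjcKO libraries, against 1.45, 1.20 and 1.20 CPM in WT libraries. Every RBPjcKO library stood more than 10 times above every WT library. The rise was 18.8-fold (log2 fold change 4.24, SE 0.27, edgeR adjusted p = 0.000303). The Xylt1 entry itself had 18.4, 27.4 and 31.9 CPM in RBPjcKO, against 2.53, 0.982 and 0.885 CPM in WT, a 17.6-fold rise (edgeR adjusted p = 0.00156). As a percentage of the host count the clone held 93.4, 82.2 and 104% in RBPjcKO, against 57.4, 122 and 135% in WT, and the groups overlapped.

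Clones at the ends of 3 further genes were among the 12 largest rises. At Lzts1, a leucine zipper protein, fantom3_C230098O21 (chr8:69132674-69134711, minus strand) had 2.58, 3.04 and 4.70 CPM in RBPjcKO libraries, against 1.29, 0.917 and 0.964 CPM in WT libraries (log2 fold change 1.70, SE 0.29, edgeR adjusted p = 0.0110), and the Lzts1 entry rose 4.59-fold. Without WT replicate 2 the clone's adjusted p was 0.0573. At Sox4, a transcription factor of the HMG-box family, fantom3_E330021J16 (chr13:28949044-28949967, minus strand) had 5.30, 5.16 and 6.17 CPM in RBPjcKO libraries, against 1.40, 1.77 and 2.66 CPM in WT libraries, a 2.86-fold rise, while the Sox4 entry rose 1.43-fold (edgeR adjusted p = 0.0102 for the clone and 0.0288 for the gene). The difference of these 2 changes was not called (edgeR adjusted p = 0.155 over the 443 pairs of clone and host described below). At Cd33, a sialic acid-binding receptor of myeloid cells, fantom3_C730013D23 (chr7:43524216-43526379, minus strand) had 2.15, 2.43 and 4.10 CPM in RBPjcKO libraries, against 1.01, 0.851 and 1.30 CPM in WT libraries (log2 fold change 1.46, SE 0.31, edgeR adjusted p = 0.0243). The Cd33 entry had 6.17, 5.06 and 7.39 CPM in RBPjcKO, against 5.47, 1.66 and 3.93 CPM in WT, with overlapping groups, and was not called (log2 fold change 0.75, SE 0.38). The calls of the Sox4 and Cd33 clones were also lost without WT replicate 2 (edgeR adjusted p = 0.0538 and 0.101), and that of the Cd33 clone without RBPjcKO replicate 3 (0.0594) and WT replicate 1 (0.0652).

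Among the falls at protein-coding genes, the steepest above 1 CPM lay at Ptprt, a receptor-type tyrosine phosphatase. There fantom3_3526404I17 (chr2:161521889-161525092, minus strand) had 0.282, 0.187 and 0.256 CPM in RBPjcKO libraries, against 0.655, 1.53 and 1.20 CPM in WT libraries, a 4.63-fold fall (log2 fold change -2.21, SE 0.41), and the Ptprt entry fell 7.27-fold (edgeR adjusted p = 0.0155 and 0.0159). At Zfp738, a zinc finger protein, fantom3_C130033A10 (chr13:67658685-67661680, minus strand) had 0.738, 0.583 and 0.854 CPM in RBPjcKO libraries, against 1.29, 2.25 and 1.69 CPM in WT libraries (log2 fold change -1.26, SE 0.30, edgeR adjusted p = 0.0341), whereas the Zfp738 entry had 4.86, 4.18 and 3.97 CPM in RBPjcKO, against 2.64, 5.28 and 6.43 CPM in WT, with overlapping groups. The Ptprt clone lost its call without RBPjcKO replicate 2 (edgeR adjusted p = 0.0557) and WT replicate 2 (0.0688). The Zfp738 clone kept its call only without WT replicate 1 (0.0332), and was at up to 0.128 without WT replicate 2.

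The clones given for Scarb2, Hipk2, Cdk1, Klhl3, Col4a4 and Bicc1 fall outside the rule by which clones were named and were picked after their values were seen. Scarb2 encodes a lysosomal membrane protein, and its end clone fantom3_9330185J12 (chr5:92441319-92443621, minus strand) fell 1.76-fold, with 134, 121 and 123 CPM in RBPjcKO libraries, against 201, 241 and 224 CPM in WT libraries. It was among the most firmly called, with a highest adjusted p of 0.0235 over the 6 fits with a library left out (edgeR's quasi-likelihood test). Hipk2, a nuclear kinase, had an end clone, fantom3_B230339E18, at 42.2, 52.3 and 38.3 CPM in RBPjcKO, against 117, 86.3 and 78.3 CPM in WT, a 2.12-fold fall. Below it, 2745 bases further on and with no GENCODE gene, fantom3_1110014O20 (chr6:38687514-38688786, minus strand) had 11.3, 13.6 and 11.7 CPM in RBPjcKO libraries, against 27.2, 22.7 and 23.7 CPM in WT libraries, a 2.01-fold fall that belongs to the 5 lowest p-values of all loci (log2 fold change -1.01, SE 0.13, edgeR adjusted p = 0.00370). Its nearest named gene is Clec2l, 6648 bases away tail to tail. The Hipk2 entry had a log2 fold change of -0.90 (SE 0.19).

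Several end clones sat at genes with changes of their own. Cdk1, the kinase that drives entry into mitosis, had an end clone, fantom3_8130401D08, with 37, 23 and 52 counts in RBPjcKO, against 4, 2 and 0 counts in WT, and its table entry rose 4.90-fold. Klhl3, a substrate adaptor of a cullin ubiquitin ligase, had an end clone, fantom3_7530408C15, with 50.9, 50.4 and 39.4 CPM in RBPjcKO, against 32.2, 29.0 and 25.7 CPM in WT, a 1.62-fold rise beside one of 1.63-fold in the gene entry. Col4a4, a chain of basement membrane collagen, had an end clone, fantom3_E030011A16, with 4, 12 and 6 counts in RBPjcKO, against 15, 56 and 39 counts in WT, and its entry fell 3.93-fold. Bicc1, an RNA-binding protein, had an end clone, fantom3_C230032O19, with 2.19, 2.83 and 3.12 CPM in RBPjcKO, against 3.67, 8.34 and 6.09 CPM in WT, and its entry fell 2.54-fold. The Cdk1 and Col4a4 clones rest on few counts in a group. The Cdk1 clone reached the count minimum through RBPjcKO libraries alone, so a difference was built into its selection, and its call without WT replicate 2 was lost (edgeR adjusted p = 0.0606). Of the 6 fits with a library left out, the Klhl3 clone was called in 2, and the Col4a4 and Bicc1 clones in 1 each, with adjusted p of up to 0.0742, 0.127 and 0.152, each without WT replicate 2.

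Whether a clone and the gene that holds it changed by the same amount was asked for 443 pairs in 399 host genes, with a test added after the data were seen. The test compares clone and host within each library and then between genotypes. It called 2 pairs (0.451%) at an adjusted p under 0.05 and 69 at an unadjusted p under 0.05. Of the 28 called clones with a tested host, 14 had a host called in the same direction, 0 in the opposite one, and 14 a host that was not called, 12 of these with the same sign. Seen from the hosts, the host was called in 50 of the 443 pairs, in a fit that called 14.5% of named genes. In 14 of these 50 pairs the clone was called the same way. Across the 443 pairs the log2 fold changes had Pearson's r = 0.616 and Spearman's rho = 0.530, as a description, since clone and host come from the same libraries.

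**Figure D3:**
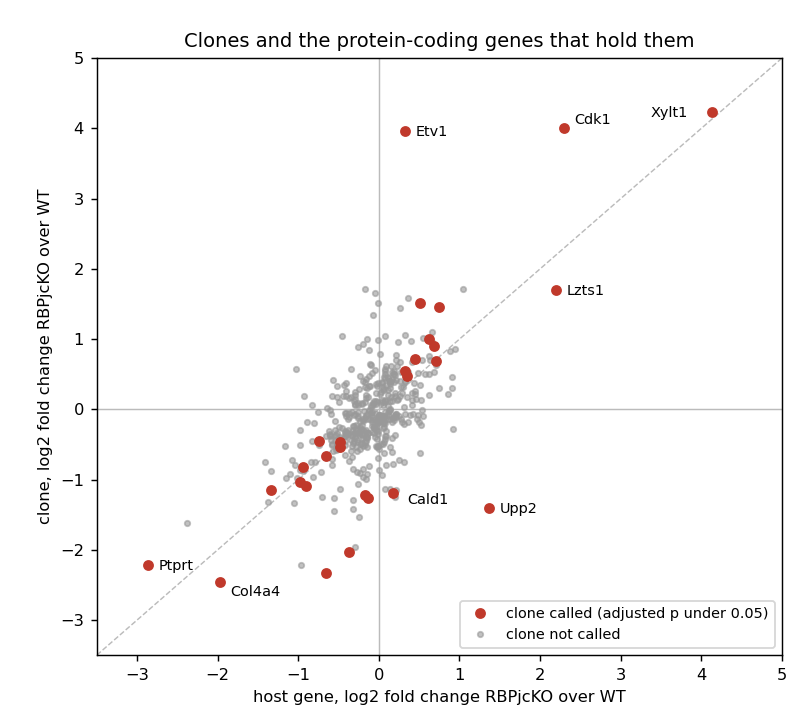
Log2 fold change (RBPjcKO over WT) of 443 clones against that of the protein-coding gene that holds each on the same strand. Red points are called clones, grey points are not called, and the dashed line marks equal change. Etv1 and Cald1 are the pairs whose difference was called, and the Etv1 clone reached the count minimum through RBPjcKO libraries alone.

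Etv1, an ETS-family transcription factor, was one of these pairs. The clone fantom3_A330007G10 (chr12:38869931-38870479, plus strand) lies in an untranslated exon that ends with an annotated transcript, 1715 bases beyond the table entry, and had 26, 23 and 26 counts in RBPjcKO, against 2, 1 and 1 counts in WT. It reached the count minimum through RBPjcKO libraries alone, so a difference was built into its selection and its tests are not independent of that. The Etv1 entry had 14.1, 12.7 and 11.2 CPM in RBPjcKO, against 9.52, 10.7 and 10.2 CPM in WT, and was not called (log2 fold change 0.32, SE 0.13). As a percentage of the host count the clone held 4.00, 3.78 and 4.94% in RBPjcKO, against 0.491, 0.204 and 0.255% in WT. All 3 RBPjcKO libraries stood well above all WT libraries in this percentage. The clone changed by 3.65 (SE 0.46) more than its host on the log2 scale, with adjusted p = 0.00668 in the edgeR quasi-likelihood interaction test. On its own the clone rose (log2 fold change 3.96, SE 0.50, edgeR adjusted p = 0.00380). The WT level rests on 4 counts over the group, so the size of the rise is loosely set. A second clone in Etv1, fantom3_E130004J04, was not called (log2 fold change 1.06) and differed from the host by 0.82 (SE 0.75).

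Cald1, which encodes the actin-binding protein caldesmon, was the other pair. Its clone fantom3_6720462J17 (chr6:34598544-34687173, plus strand) is spliced and lies upstream of the table entry of Cald1, 22270 bases away. Its genomic interval, introns included, spans coding exons of Cald1, and whether the clone's own exons hold them was not tested. The clone had 2.80, 3.29 and 3.16 CPM in RBPjcKO libraries, against 7.18, 8.10 and 5.86 CPM in WT libraries, a 2.29-fold fall. The Cald1 entry had 71.3, 79.2 and 85.2 CPM in RBPjcKO, against 62.9, 72.9 and 73.3 CPM in WT, and was not called (log2 fold change 0.17, SE 0.11). As a percentage of the host count the clone held 3.93, 4.15 and 3.71% in RBPjcKO, against 11.4, 11.1 and 7.99% in WT, without overlap of the groups. It changed by -1.36 (SE 0.19) relative to its host, with adjusted p = 0.00946 in the edgeR quasi-likelihood interaction test.

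**Figure D4:**
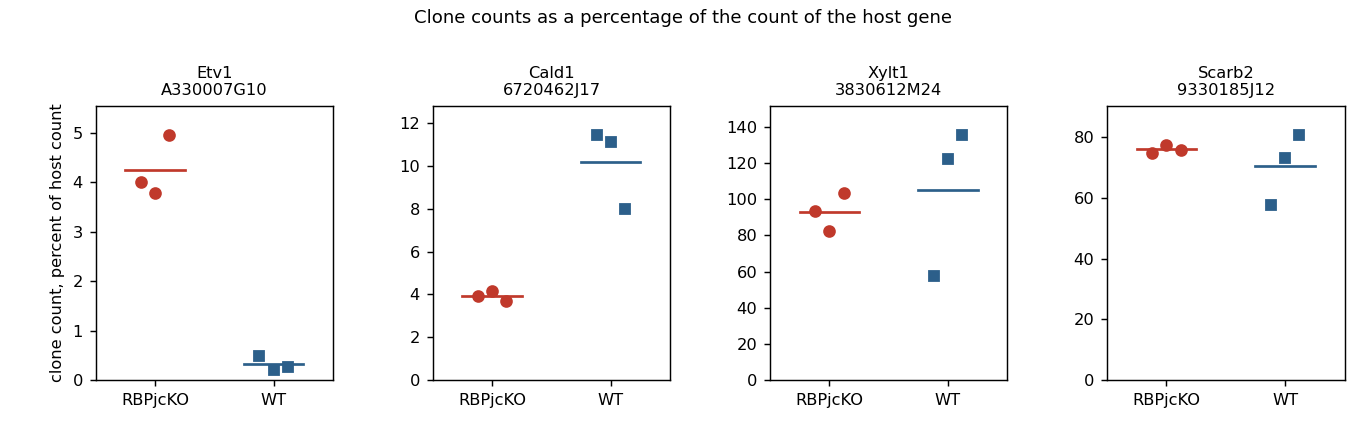
Count of the clone as a percentage of the count of its host gene, in each RBPjcKO (red circles, left) and WT library (blue squares, right), with group means as lines. The groups separate at Etv1 and Cald1 and overlap at Xylt1 and Scarb2, where the difference between clone and gene was not called. The Etv1 clone reached the count minimum through RBPjcKO libraries alone, so a difference was built into its selection.

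A clone assigned through GENCODE to Upp2, the liver form of uridine phosphorylase, ran against this host without reaching the threshold. This clone, fantom3_E330039C08 (chr2:58567298-58635280, plus strand), is spliced, and its interval, introns included, spans coding exons. Its nearest named gene is Acvr1, 469 bases away head to head, which was not called (log2 fold change -0.03, SE 0.14). The table entry of Upp2 starts at chr2:58755185, beyond the end of the clone. The clone had 0.890, 0.416 and 0.576 CPM in RBPjcKO libraries, against 1.89, 1.51 and 1.59 CPM in WT libraries, a fall (log2 fold change -1.40, SE 0.32, edgeR adjusted p = 0.0305). It kept its call only without RBPjcKO replicate 1 (edgeR adjusted p = 0.0285), and was at up to 0.0854 without RBPjcKO replicate 2. The Upp2 entry had 4.97, 2.95 and 14.8 CPM in RBPjcKO, against 2.88, 2.53 and 3.41 CPM in WT, with overlapping groups. The difference between the changes was -2.55 (SE 0.51; edgeR adjusted p = 0.0614 in the quasi-likelihood interaction test). The Upp2 entry was highest in RBPjcKO replicate 3, the library in which the hepatocyte markers were also highest, and the part of hepatocyte RNA in this was not tested.

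Among the called long noncoding RNA loci 11 fell and 5 rose, a split that was not tested. The most abundant of those that fell was AU020206, whose promoter opens the sequences above. Its clone fantom3_C430005K08 (chr7:75769040-75772046, minus strand) had 17.8, 25.6 and 18.3 CPM in RBPjcKO libraries, against 53.1, 73.5 and 56.0 CPM in WT libraries. Every RBPjcKO library was below every WT library by a wide margin, a 2.95-fold fall (log2 fold change -1.56, SE 0.18, edgeR adjusted p = 0.00297) called in all 6 fits with a library left out. The nearest named gene, Akap13, an anchoring protein that lies 14430 bases away tail to tail, was not called (log2 fold change -0.03, SE 0.20).

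The other promoters printed above belong to further long noncoding RNAs that fell. Gm38910, seen through fantom3_A730093O14 (chr6:134605234-134607681, minus strand), had 4.19, 4.31 and 3.22 CPM in RBPjcKO libraries, against 10.4, 9.58 and 8.98 CPM in WT libraries, a 2.47-fold fall (edgeR adjusted p = 0.00381, and called in all 6 fits with a library left out). It lies 1525 bases downstream of Mansc1 on the same strand, and Mansc1 fell 1.61-fold. The clone fantom3_1810073O08 (chr17:83917937-83921606, plus strand) had 0.347, 0.583 and 0.384 CPM in RBPjcKO libraries, against 1.45, 1.35 and 1.95 CPM in WT libraries, a 3.59-fold fall (log2 fold change -1.84, SE 0.32, edgeR adjusted p = 0.0112).

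The other long noncoding RNA loci among the 12 largest falls stood near 1 CPM. At Gm830 fantom3_F830217E06 had 0.738, 0.708 and 0.769 CPM in RBPjcKO libraries, against 1.45, 2.73 and 1.46 CPM in WT libraries. At Gm37805, 190 bases head to head from the sulfotransferase gene Chst2, fantom3_G370109F02 had 0.608, 0.708 and 0.555 CPM in RBPjcKO libraries, against 1.52, 1.18 and 1.77 CPM in WT libraries, and Chst2 fell 1.94-fold. Both clones were separate between the groups, as were all 75 called loci. With a library left out, the Gm830 clone kept its call in 2 of the 6 fits, without WT replicate 1 and without WT replicate 3, and its edgeR adjusted p reached 0.111 without WT replicate 2. The Gm37805 clone lost its call in each of the 6 fits, with an edgeR adjusted p from 0.0542 without WT replicate 2 to 0.0812 without RBPjcKO replicate 3.

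Long noncoding RNAs gave 3 of the 12 largest rises. D030007L05Rik, through fantom3_D030007L05 (chr13:70650144-70655979, plus strand), had 2.74, 2.29 and 1.71 CPM in RBPjcKO libraries, against 0.351, 0.458 and 0.417 CPM in WT libraries. The rise was 5.46-fold (log2 fold change 2.45, SE 0.29, edgeR adjusted p = 0.00304) and was called in all 6 fits with a library left out. Gm45705, through fantom3_A630022M18 (chr8:72765481-72767615, plus strand), had 1.72, 1.25 and 1.75 CPM in RBPjcKO libraries, against 0.538, 0.349 and 0.521 CPM in WT libraries, a 3.35-fold rise. It lies 1595 bases downstream of F2rl3, which encodes the thrombin receptor PAR4, and F2rl3 rose 4.23-fold, with 5.36, 3.93 and 5.32 CPM in RBPjcKO, against 0.725, 1.57 and 1.15 CPM in WT. The Gm45705 clone lost its call without WT replicate 2 (edgeR adjusted p = 0.0522). Gm26578, through fantom3_D630024L06, had 0.999, 0.957 and 1.39 CPM in RBPjcKO libraries, against 0.491, 0.458 and 0.469 CPM in WT libraries, and its call was lost in each of the 6 fits with a library left out, with an adjusted p of up to 0.119 without RBPjcKO replicate 3.

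Loci with no GENCODE gene gave 21 calls. The largest rise above 1 CPM was fantom3_8030487G03 (chr1:58763749-58767154, minus strand), with 9.44, 8.64 and 8.03 CPM in RBPjcKO libraries, against 1.78, 3.12 and 3.02 CPM in WT libraries, 3.29-fold higher (log2 fold change 1.72, SE 0.23, edgeR adjusted p = 0.00459) and called in all 6 fits with a library left out. It lies 4866 bases from the end of Cflar, the gene of the caspase inhibitor c-FLIP, tail to tail, and Cflar was not called (log2 fold change -0.21, SE 0.12). On the opposite side, fantom3_D730033C20 (chr17:73877239-73879663, minus strand), 4244 bases downstream of Xdh on the same strand, had 5.19, 2.43 and 3.31 CPM in RBPjcKO libraries, against 16.2, 13.8 and 8.20 CPM in WT libraries, a 3.50-fold fall. Xdh, the xanthine dehydrogenase of purine breakdown, fell 1.78-fold, with 511, 425 and 376 CPM in RBPjcKO, against 919, 823 and 589 CPM in WT. The call of the clone was lost without WT replicate 2 (edgeR adjusted p = 0.0582).

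More such loci were among the 24 largest changes. The clone fantom3_1110064A23, 1221 bases upstream of Aif1l on the same strand, had 0.564, 0.541 and 0.619 CPM in RBPjcKO libraries, against 2.03, 3.12 and 1.17 CPM in WT libraries, and Aif1l fell 3.19-fold. The clone fantom3_C730049O14, 1772 bases downstream of Rnf125, a ubiquitin ligase, had 16.5, 9.76 and 15.1 CPM in RBPjcKO libraries, against 5.75, 4.91 and 7.47 CPM in WT libraries, and Rnf125 rose 1.89-fold. The clone fantom3_9930037L17, 18190 bases downstream of Ahdc1, had 16.4, 11.1 and 15.7 CPM in RBPjcKO libraries, against 37.5, 46.4 and 19.6 CPM in WT libraries, with Ahdc1 not called. Of the remaining 3, fantom3_A930028F22 beside Scaf11 fell 2.49-fold, and fantom3_F830048J15 beside 2210016F16Rik and fantom3_F830101O04, which lies 395219 bases from the nearest named gene, rose 2.48-fold and 2.25-fold. A pseudogene locus, fantom3_4933417M22 at AC169509.1, rose 2.72-fold, and reads of a pseudogene may come from its parent gene. Leaving out single libraries weakened most of the 24 changes without turning any round. Of the 12 rises, 3 kept their call in all 6 fits, and 9 lost it without WT replicate 2, with an adjusted p of at most 0.115. Of the 12 falls, 3 kept it in all 6, and 9 lost it without WT replicate 2 and 8 without RBPjcKO replicate 2, with adjusted p of at most 0.128 and 0.110. Leaving out any other library cost 3 to 6 of the 12 calls in either direction.

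Some called loci below 1 CPM had large folds and lie beside genes that changed. They were picked after their values were seen. The clone fantom3_C230063K24, 113 bases downstream of Wscd1, had 4, 3 and 4 counts in RBPjcKO, against 25, 29 and 19 counts in WT, and Wscd1 fell 3.55-fold. The clone fantom3_B020040E13, 940 bases downstream of Gata5, a GATA transcription factor, had 2, 3 and 2 counts in RBPjcKO, against 16, 18 and 15 counts in WT, and Gata5 fell 2.66-fold. The clone fantom3_4833419E13, 2752 bases downstream of N4bp3, had 1.02, 0.853 and 0.811 CPM in RBPjcKO, against 0.164, 0.327 and 0.0781 CPM in WT, and N4bp3 rose 5.00-fold, with 57.9, 82.0 and 80.0 CPM in RBPjcKO, against 14.7, 13.6 and 15.6 CPM in WT. In Pvt1, the long noncoding RNA beside Myc, fantom3_B930023G09 had 12, 22 and 30 counts in RBPjcKO, against 2, 2 and 0 counts in WT, and the Pvt1 entry rose 2.22-fold. Head to head with Sox4, fantom3_F830103M23 had 0.304, 0.354 and 0.235 CPM in RBPjcKO, against 0.0935, 0.0437 and 0.0260 CPM in WT. The Wscd1 and Gata5 clones reached the count minimum through WT libraries alone, and the Pvt1 clone and the Sox4 partner through RBPjcKO libraries alone, so a difference was built into their selection. The N4bp3 clone was called in 2 of the 6 fits with a library left out, without WT replicates 2 and 3, with an edgeR adjusted p of up to 0.0681 without RBPjcKO replicate 1. The Pvt1 clone lost its call without WT replicate 2 (edgeR adjusted p = 0.0690), and the Sox4 partner kept it in 1 fit, without WT replicate 1, with up to 0.132 without WT replicate 2.

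Over all loci the change of a clone went with that of its nearest named gene most closely where the clone lay downstream on the same strand. Within 10000 bases 1105 loci had a tested neighbour, and 12.6% of those neighbours were called. Of the 55 called loci among them, 28 had a neighbour called in the same direction and 0 in the opposite one. Pearson's r between the log2 fold changes of locus and neighbour was 0.634 for 625 loci downstream on the same strand, 0.333 for 297 head to head, 0.325 for 84 upstream on the same strand and 0.250 for 99 tail to tail, as descriptions. Spearman's rho was 0.530, 0.281, 0.278 and 0.211. Depth differed as well. All loci within 10000 bases had a median of 55.5 mean counts downstream on the same strand. The medians were 24.2 head to head, 28.9 upstream on the same strand and 26.3 tail to tail. The part of depth in the order of these correlations was not tested. Locus and neighbour share their libraries, and whether the counting used strand is unknown here, so reads of a head-to-head partner cannot be told apart from those of the clone.

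Around a list of 66 genes no clone was called. The list holds genes of Notch signalling and LSEC identity, and others such as Myc, Plau and Peg10. Clone loci had a listed gene as nearest neighbour within 50000 bases at 8 of the 66 (Bmp2, Ets1, Gata6, Klf4, Maf, Meis2, Nrarp and Sox17), 13 loci in all. The listed Notch genes Notch1, Dll4, Jag1, Hes1 and Hey1 had no such locus, so nothing is shown for them. By edgeR's quasi-likelihood test, which called 10.7% of all entries, 0 of the 13 were called at an adjusted p under 0.05. By DESeq2 0 were called, and 2 had an unadjusted p under 0.05 in edgeR. How many of all entries have groups that do not overlap was not counted. Among the 13, groups do not overlap at 4, namely fantom3_D830011I19, fantom3_8030446N09, fantom3_A830011L22 and fantom3_5330435F21. Of these, fantom3_8030446N09 reached the count minimum through WT libraries alone. The lowest edgeR adjusted p of these was 0.0825, at fantom3_D830011I19, whose interval spans an untranslated exon of Ets1 upstream of the table entry. This clone had 2.00, 2.06 and 1.75 CPM in RBPjcKO libraries, against 3.83, 2.75 and 2.73 CPM in WT libraries. The Ets1 entry had a log2 fold change of -0.34 (SE 0.12). Head to head with Sox17, a transcription factor of arterial endothelium, fantom3_D130041E14 starts 137 bases away and had 2.32, 1.79 and 1.79 CPM in RBPjcKO libraries, against 2.92, 2.90 and 1.33 CPM in WT libraries. At Gata6, a GATA transcription factor, fantom3_8030446N09 starts 1022 bases away head to head and had 0.130, 0.166 and 0.192 CPM in RBPjcKO libraries, against 0.257, 0.218 and 0.521 CPM in WT libraries, and fantom3_D830007I17 further upstream had 0.521, 0.271 and 0.769 CPM in RBPjcKO libraries, against 0.398, 1.33 and 1.17 CPM in WT libraries. Beside Nrarp, a feedback inhibitor of Notch, fantom3_D530008I23 had 1.58, 1.81 and 1.49 CPM in RBPjcKO libraries, against 2.48, 2.88 and 1.61 CPM in WT libraries.

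At Maf, a transcription factor of sinusoidal identity, 3 clones were measured. The short clone fantom3_2810401A20, of 152 bases in an untranslated exon upstream of the table entry, was among the 10 most abundant loci per length, with 40.3, 48.8 and 32.4 CPM in RBPjcKO libraries, against 49.9, 47.1 and 35.6 CPM in WT libraries. The intronic fantom3_E130119C22 had 9.77, 10.7 and 8.28 CPM in RBPjcKO libraries, against 8.30, 14.3 and 10.2 CPM in WT libraries, and fantom3_C730004C11, which lies 39216 bases downstream, had 1.78, 1.96 and 1.52 CPM in RBPjcKO libraries, against 1.36, 1.70 and 1.61 CPM in WT libraries. Groups overlapped at all 3, and the Maf entry was not called (log2 fold change 0.05, SE 0.13). At Meis2, fantom3_A830011L22 had 4.45, 4.93 and 4.01 CPM in RBPjcKO libraries, against 6.36, 5.35 and 5.44 CPM in WT libraries, and fantom3_2700033N17 had 2.71, 2.75 and 2.28 CPM in RBPjcKO libraries, against 2.92, 2.55 and 2.29 CPM in WT libraries. At Bmp2 fantom3_9530052O14 had 1.32, 0.708 and 0.320 CPM in RBPjcKO, against 0.655, 1.09 and 0.599 CPM in WT. At Klf4 fantom3_5330435F21 had 0.391, 0.333 and 0.214 CPM in RBPjcKO, against 0.655, 0.437 and 0.833 CPM in WT. The second clone near Sox17, fantom3_C130067L08, had a log2 fold change of -0.32 (SE 0.27).

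With 1 clone per locus, 1 of the 10 most abundant per length was called, in a fit that called 10.7% of all entries. The highest of these 10 were fantom3_3930401B19 (chr13:55184771-55186647, plus strand), with 520.4, 352 and 447 RPKM in RBPjcKO libraries, against 486, 396 and 374 RPKM in WT libraries, and fantom3_1200016E24 (chr13:21764550-21767823, minus strand), with 473, 309 and 401 RPKM in RBPjcKO libraries, against 456, 470.3 and 423 RPKM in WT libraries. Neither overlaps a GENCODE gene, and their log2 fold changes were 0.08 (SE 0.19) and -0.17 (SE 0.17). After them came fantom3_1010001E19 on mitochondrial DNA, with a mean of 350.2 RPKM. Also among the 10 and without a GENCODE gene were fantom3_E130111P11, with a mean of 279 RPKM, and fantom3_9530030H05, with 277 RPKM, and neither was called. The end clone of Mxd4, a partner of Max that opposes Myc, fantom3_2810410A03, averaged 162 RPKM and had a log2 fold change of 0.07 (SE 0.12). A clone of 70 bases over the immunoglobulin kappa region, fantom3_2010205A11, had 6.40, 20.3 and 10.0 CPM in RBPjcKO, against 4.26, 8.62 and 4.32 CPM in WT with overlapping groups.

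The called one lay in an untranslated exon of H2-Q6, a class I molecule of antigen presentation. This clone, fantom3_0610037M15 (chr17:35428559-35430046, plus strand), had 142, 238 and 205 CPM in RBPjcKO libraries, against 563, 319 and 314 CPM in WT libraries, a 2.04-fold fall (log2 fold change -1.03, SE 0.27, edgeR adjusted p = 0.0441). The entries of H2-Q6 and of its neighbour H2-Q8 were not called (edgeR adjusted p = 0.0956 and 0.0946). The class I genes are near copies of each other, so the source of these reads is uncertain. The call was lost in each of the 6 fits with a library left out, with an adjusted p from 0.0509 without WT replicate 3 to 0.106 without RBPjcKO replicate 1.

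Mitochondrial DNA gave 13 clones in 5 loci, and 10 of the 13 were higher in every RBPjcKO library than in any WT library. Clones of a locus share reads, so these are not 10 separate observations. How many of all entries have groups that do not overlap was not counted. None of the 13 was called by edgeR at an adjusted p under 0.05, in a fit that called 10.7% of all entries. In that fit 8 had an unadjusted p under 0.05, and DESeq2 called 4. Of the 13, 8 lie in the 2 ribosomal RNAs of the organelle. The others lie over mt-Co3, mt-Nd3 and mt-Nd4l (fantom3_D030018G08), over mt-Nd6 (fantom3_I420007J21), at mt-Tp (fantom3_0610041I18) and at the end of the molecule. Together they took 0.207, 0.223 and 0.261% of all counts in RBPjcKO libraries, against 0.0609, 0.153 and 0.191% in WT libraries. The groups do not overlap, and the exact two-sided permutation test gave p = 0.10, the smallest that 3 against 3 libraries allow. In mt-Rnr2, the large ribosomal RNA, fantom3_1010001E19 had 618, 676 and 800.4 CPM in RBPjcKO libraries, against 204, 455 and 553 CPM in WT libraries (log2 fold change 0.79, SE 0.31, edgeR adjusted p = 0.140). In mt-Rnr1, the small one, fantom3_D830037B04 had 199, 182 and 197 CPM in RBPjcKO libraries, against 48.6, 116 and 158 CPM in WT libraries (log2 fold change 0.84, SE 0.34, edgeR adjusted p = 0.150). WT replicate 1 was the lowest library at all 13 clones. The clones at the end of the molecule without a GENCODE gene, fantom3_A830048K20 and fantom3_B230327J08, had log2 fold changes of 0.00 (SE 0.16) and -0.02 (SE 0.18).

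**Figure D5:**
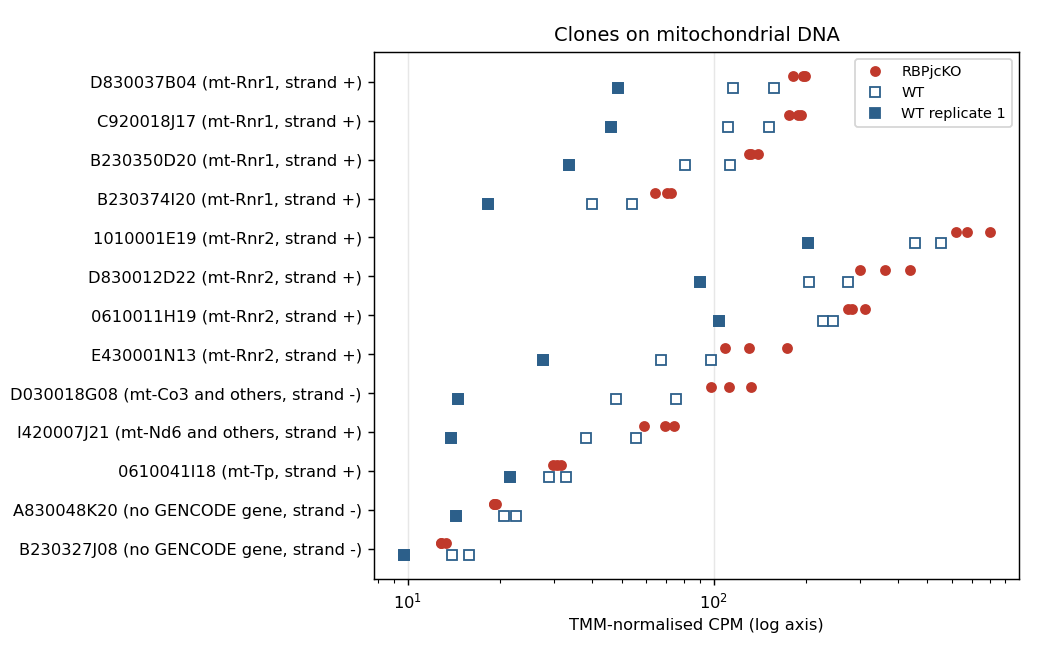
TMM-normalised CPM (log axis) of the 13 clones on mitochondrial DNA in each library, RBPjcKO as red circles and WT as blue squares, WT replicate 1 filled. RBPjcKO libraries lie above WT libraries at the ribosomal RNA clones, and WT replicate 1 is the lowest library throughout.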

How the data were processed

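RNA of liver sinusoidal endothelial cells was sequenced in 3 RBPjcKO and 3 WT libraries, grouped by their genotype label, with no batch or pairing labelled. The submitters' processing notes name bcl2fastq, TopHat2 2.0.13 and the build mm10 (GRCm38). What counted the reads, on which annotation and whether by strand, is not given in the sources. Per the file headers, the authors deposited a raw count per entry and library, and an RPKM value scaled by entry length and library total. Entries received 37307663 to 48370102 counts per library, which sets a precision that is low for loci of few counts.

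All 56825 entries were fitted together. The filterByExpr function (min.count 10, min.total.count 15) left 29067 entries, which were given TMM factors and tested by edgeR 4.0.16 (R 4.3.3, glmQLFit and glmQLFTest, quasi-likelihood), with Benjamini-Hochberg adjustment over all of them and a threshold of 0.05. Every adjusted p in the text is from edgeR unless another tool is named. Standard errors (SE) were approximated by dividing the absolute log2 fold change by the square root of the F statistic. The biological coefficient of variation was 0.21. Both tests were tested on simulated counts. Levels are TMM-normalised CPM unless RPKM is named.

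Clones with start after end (2 entries) were read from the lower to the higher coordinate. Nearest genes were sought within 10000 bases and, for the list of 66 genes, 50000 bases, and 39 named entries that span over 3000000 bases were not used as neighbours. Clones were set against GENCODE vM21 and promoters against RefSeq (GRCm38.p6). Of 370 long noncoding RNA loci, 113 matched a RefSeq promoter. The difference between clone and host gene was tested with library as a block, a term for clone or host and its interaction with genotype, adjusted over 443 pairs. This test, the omission of mitochondrial clones and of the wide entries were added after the data were seen.

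The clones named are, 1 per locus, the called loci with the 12 highest and the 12 lowest log2 fold changes where a group averaged 1 CPM or more, the 10 most abundant by RPKM, the 5 lowest p-values, and loci whose nearest named gene within 50000 bases is on the list. The members, the gene lists and the tests were chosen with earlier results of these data known. The count over 1 clone and 1 promoter with its clone are not reported here. DESeq2 1.42.0 and limma 3.58.1 served for alternatives, and tables and figures were made with Python 3.11.15.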

Additional observations from a re-analysis of the deposited data

How the results depend on the processing

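Of the alternatives tried, those that moved a count by more than 1.5 times were these. DESeq2 with its size factors called 171 clones in 134 loci, 53 higher and 81 lower in RBPjcKO, against 92 clones in 75 loci, 30 higher and 45 lower, in the edgeR fit, and 73 of the 75 were among them. DESeq2 also called 16.7% of all entries. An adjusted p under 0.01 left 21 clones in 18 loci, 5 higher and 13 lower. With a library left out 23 to 64 clones and 20 to 54 loci were called, 6 to 30 of the loci higher and 14 to 33 lower, the fewest without WT replicate 2. These fits called 3.17 to 7.91% of all entries. Asking for at least 5000 bases to every named gene left 526 clones in 452 loci with 22 called, and at least 10000 bases left 364 clones in 308 loci with 16 called, by construction.

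Other scalings (TMM factors from named genes, upper quartile, library totals), other filters on low counts, fits on fewer entries and limma on log2(RPKM + 1) called 69 to 85 loci, 55 to 73 of them shared with the 75, and none changed sign. The difference in the share of counts, -0.0199 percentage points, turned to 0.0299 without RBPjcKO replicate 2 and 0.0171 without WT replicate 2, within the spread between libraries. Not using the wide named entries for the overlap gave 1840 clones in 1512 loci with 76 called, and leaving out mitochondrial clones gave 75 called. The 2 called differences between clone and host gene also passed an adjusted p under 0.01, which is a stricter cut of the same edgeR test and no further check. The Etv1 clone among them reached the count minimum through RBPjcKO libraries alone, so a difference was built into its selection. Of the named clones under each alternative, 1227 values kept their side of the threshold, 305 lost the call and 2 gained it. No value called in the main fit or in the alternative turned round, but values called in neither could change sign. At fantom3_9530052O14 near Bmp2, for example, the log2 fold change ran from -0.60 to 0.37 over the fits with a library left out. No paired analysis was possible because the labels give the libraries no shared replicate numbers. At a mean of 10 to 50 counts, 3.03% of loci and 6.54% of named genes were called, and a locus not called at this depth is not shown to be unchanged.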

Other observations

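Further loci not named above also held called clones, chosen here after their values were seen. On the opposite strand of Crybg3 alone, fantom3_4933435P11 (chr16:59558013-59560407, plus strand) had 14.4, 13.5 and 15.3 CPM in RBPjcKO libraries, against 31.4, 24.8 and 24.5 CPM in WT libraries, a 1.87-fold fall called in all 6 fits with a library left out, and the Crybg3 entry, which it faces head to head, fell 1.51-fold. Opposite Arhgef15, an exchange factor of endothelial cells, fantom3_D830007B20 fell 1.51-fold, with 7.21, 6.18 and 7.26 CPM in RBPjcKO, against 12.2, 9.37 and 9.69 CPM in WT, and the Arhgef15 entry was not called (log2 fold change -0.16, SE 0.11). In an intron of Ston1, an endocytic adaptor, fantom3_7530422H18 had 58.4, 55.1 and 50.7 CPM in RBPjcKO, against 68.4, 77.7 and 77.5 CPM in WT, and the Ston1 entry fell 1.67-fold. The Arhgef15 clone was called in none of the 6 fits with a library left out and the Ston1 clone in 1, with an edgeR adjusted p of up to 0.134 and 0.112. In an untranslated exon of Mturn, fantom3_B230212L03 had 3.30, 2.50 and 3.18 CPM in RBPjcKO, against 7.65, 6.13 and 7.55 CPM in WT, a 2.37-fold fall called in all 6 such fits. The clone lies 250 bases downstream of 2410066E13Rik on the same strand, an entry that was not called (log2 fold change -0.86, SE 0.23).

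Further long noncoding RNAs changed. At Lncpint, a p53-linked long noncoding RNA, fantom3_9330200A20 had 0.803, 1.04 and 0.790 CPM in RBPjcKO, against 2.13, 1.68 and 2.01 CPM in WT, a 2.20-fold fall called in 1 of the 6 fits with a library left out. At Gm44220, fantom3_C130051K14 had 2.04, 2.77 and 2.33 CPM in RBPjcKO, against 5.19, 5.68 and 5.42 CPM in WT, a 2.28-fold fall called in all 6 fits with a library left out. At Gm26619, the most abundant long noncoding RNA locus per length, fantom3_G630054N02 had 38.7, 39.0 and 39.1 CPM in RBPjcKO, against 27.0, 23.9 and 20.1 CPM in WT, a 1.64-fold rise that lost its call without WT replicate 2 (edgeR adjusted p = 0.0528). Head to head with the DNA methyltransferase gene Dnmt3a and with no GENCODE gene, fantom3_4833432E10 had 3.67, 3.52 and 2.84 CPM in RBPjcKO, against 6.92, 6.96 and 7.50 CPM in WT, a 2.13-fold fall, while Dnmt3a was not called (log2 fold change 0.17, SE 0.11).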
